A study of Mus musculus with 6 samples.

Results

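A set of 10 genes of the calcium cycle of islet cells were followed in mouse pancreatic islets held at low or high glucose. They encode 4 pore-forming subunits of voltage-gated calcium channels (Cacna1a, Cacna1c, Cacna1d and Cacna1h), 3 auxiliary channel subunits (Cacnb2, Cacnb3 and Cacna2d1), 2 SERCA pumps (Atp2a2 and Atp2a3) and the ryanodine receptor gene Ryr2. The members were the rows of the count table whose Ensembl identifiers carry these symbols in GENCODE M21. All 10 were found among 46983 rows, and 9 passed the filter on low counts, as did 13996 genes in all. Ryr2 did not pass it.

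The islets were wild type and were kept for 24 h in CMRL medium at a non-stimulating (low) or a stimulating (high) glucose concentration, with 3 libraries of polyadenylated RNA in each group. The sources used here do not give the glucose concentrations, the strain, the age of the mice or how many mice lie behind a library. The labels do not tie the libraries to separate animals or cultures. The p-values therefore cover the spread between these samples alone, which may be technical.

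In a beta cell, glucose metabolism closes potassium channels, the membrane depolarises, and voltage-gated calcium channels open. The calcium that enters triggers the fusion of insulin granules. SERCA pumps move calcium from the cytosol into the endoplasmic reticulum, and ryanodine and inositol trisphosphate receptors release it again. The pore of a voltage-gated channel is formed by its alpha-1 subunit, while beta and alpha-2-delta subunits carry the pore to the membrane and tune its gating.

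Library totals ranged from 10596020 to 15846235 counts. The TMM factors that scale them were 0.544 to 0.941 in the low and 1.37 to 1.79 in the high glucose libraries. Levels on TMM-scaled sizes therefore need not sum to the same total in each library. The label names beta cells and islets, and all 10 beta-cell markers looked at, Ins1 and Ins2 among them, passed the filter. Exocrine RNA was present too. The 18 acinar markers took 43.9% to 58.4% of the counts in the low glucose libraries and 11.7% to 23.3% in the high glucose libraries, and the 10 beta-cell markers took 1.47% to 3.17% and 2.42% to 7.08%. On TMM-scaled sizes 0 of the 10 beta-cell markers rose and 5 fell by edgeR, with a median log2 fold change of -1.14, and 7 had an unadjusted p under 0.05. Of all tested genes 13.3% rose, 14.2% fell and 41.5% had an unadjusted p under 0.05. The libraries numbered 1 stood apart in both groups, with the smallest acinar and the largest beta-cell share of their group. The median log2 fold change over all genes was 0.01 with TMM scaling and 1.16 with plain library totals, and the changes below are those with TMM scaling. In bulk RNA, fewer cells of a type and less RNA per cell cannot be told apart.

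In the main fit, which has no replicate block, Cacnb3 alone among the 10 genes passed the test, and it rose. It encodes the beta-3 subunit, a cytoplasmic partner of the pore. The gene lies at chr15:98630840-98644529 on the plus strand (GRCm38, GENCODE M21, as for all positions of genes given here). Its level was 19.1, 18.3 and 12.1 CPM (counts per 1000000 of the TMM-scaled library size) in the 3 low glucose libraries, by replicate number. In high glucose replicates 1 to 3 it was 37.9, 37.3 and 39.7 CPM. All 3 high glucose libraries lay above all 3 low glucose libraries, and they lay close together. The means were 16.5 ± 3.82 and 38.3 ± 1.26 CPM (SD, n = 3 each), a 2.31-fold difference. The log2 fold change (high minus low) was 1.21 ± 0.19 (SE), with an adjusted p of 0.00491 in edgeR's quasi-likelihood test with Benjamini-Hochberg adjustment over all genes tested. Of 7 duct cell markers, 3 rose (Spp1, Krt19 and Krt7) and 0 fell, where 13.3% and 14.2% of all tested genes did. The other 4 had log2 fold changes below 0, and the median of the 7 was -0.17. The summed level of the 7 duct markers, to which Spp1 gave most at high glucose, was 423 to 841 CPM at low and 2648 to 3170 CPM at high glucose. No duct marker was at 0 in all libraries, and their part in the Cacnb3 values was not tested. Over the 17 alternative settings the log2 fold change of Cacnb3 lay between 1.05 and 2.32, and each of them called it higher, where 4.86% to 59.6% of all genes were called higher.

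Of the 9 tested members, 1 rose and 0 fell at an adjusted p under 0.05 by edgeR, where 13.3% of all tested genes rose and 14.2% fell. DESeq2 and limma-voom each called Cacnb3 higher (15.6% and 10.7% of all genes) and Cacna1d lower (16.8% and 14.0%). Of the 9 members, 4 had an unadjusted p under 0.05 in edgeR, as did 41.5% of all tested genes. The median log2 fold change of the 9 was -0.49, that of all tested genes was 0.01 and that of the 10 beta-cell markers was -1.14. The part of beta-cell content in the members' changes was not tested. High glucose libraries lay wholly above the low ones for 1 member, Cacnb3 (23.5% of all tested genes), and wholly below them for 1, Cacna1d (22.4%). With replicate numbers entered as a block, 1 member rose (15.7% of all genes) and 3 fell, Cacna1d, Cacna2d1 and Atp2a3 (17.7%). Without high glucose replicate 1, 1 rose (19.8%) and 5 fell, the same 3 with Cacna1a and Atp2a2 (20.5%).

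**Figure D1:**
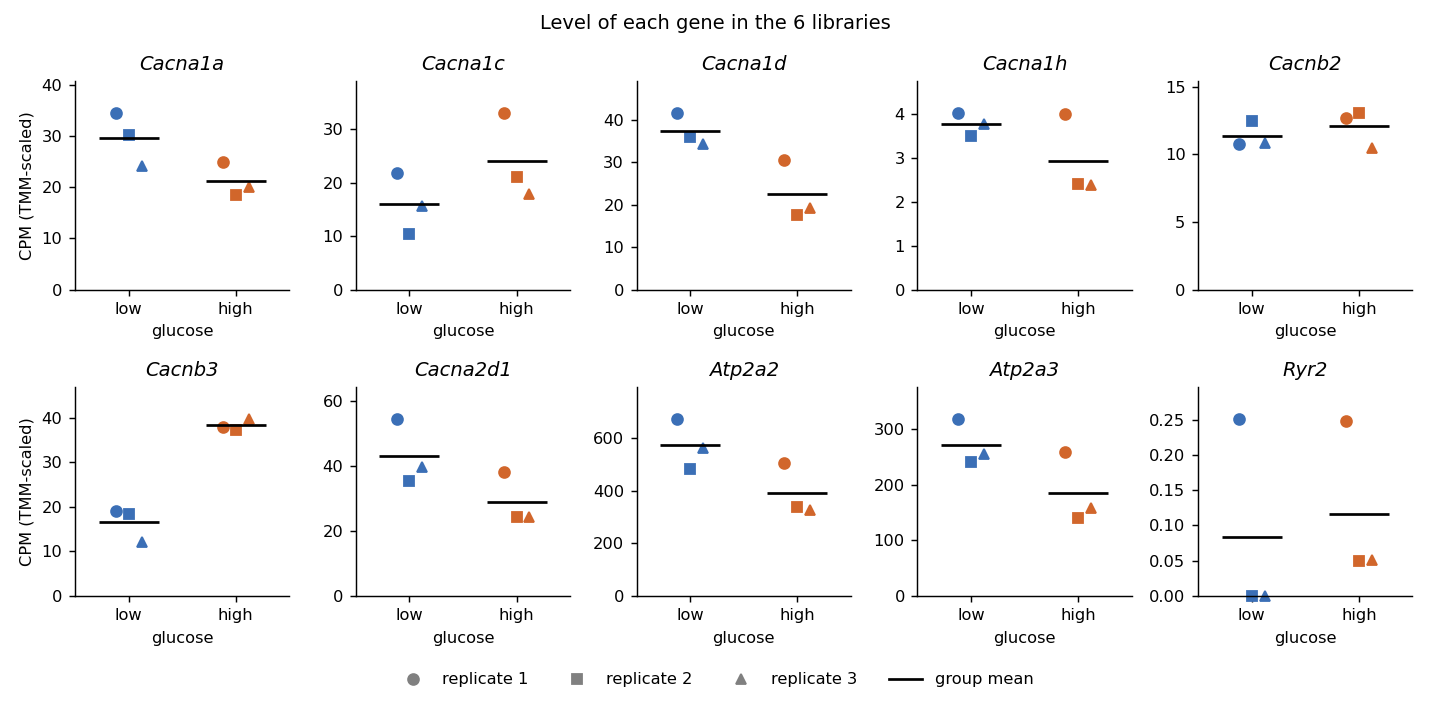
Levels of the 10 genes in CPM on TMM-scaled library sizes (vertical axes, each from 0) in the low (blue) and high glucose (orange) libraries, where symbols give the replicate number and bars the mean of 3 libraries. Cacnb3 is at 12.1 to 19.1 CPM in the low and 37.3 to 39.7 CPM in the high glucose libraries, and Cacna1d is the only other gene whose groups do not overlap.

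The other auxiliary subunits did not pass. Cacnb2 (chr2:14603088-14987908, plus strand), which encodes the beta-2 subunit, was at 10.8, 12.5 and 10.9 CPM in replicates 1 to 3 at low glucose and at 12.7, 13.1 and 10.5 CPM in replicates 1 to 3 at high glucose. The groups overlapped, and the log2 fold change was 0.09 ± 0.18 (edgeR adjusted p = 0.743). Cacna2d1 (chr5:15934691-16374511, plus strand) encodes the alpha-2-delta-1 subunit, an extracellular partner of the pore and the target of gabapentin. It was at 54.3, 35.2 and 39.5 CPM in replicates 1 to 3 at low glucose and at 38.0, 24.3 and 24.1 CPM in replicates 1 to 3 at high glucose. High glucose replicate 1 lay between the low glucose libraries, and the other high glucose libraries lay below them. Its log2 fold change was -0.58 ± 0.24 (edgeR adjusted p = 0.116). With the replicate block it was -0.59 ± 0.14, which passed (edgeR adjusted p = 0.0212), and without high glucose replicate 1 it was -0.83, which passed as well (edgeR adjusted p = 0.0160).

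The 2 beta subunit genes were also compared by the ratio of their counts inside each library, a value that no scaling of the libraries can change. In replicates 1 to 3 at low glucose there were 0.566, 0.682 and 0.896 Cacnb2 counts for each Cacnb3 count. At high glucose this ratio was 0.334, 0.351 and 0.264. Every high glucose library lay below every low glucose library. As a share of the counts of both genes, Cacnb2 held 36.1%, 40.5% and 47.3% at low glucose, where the exact 95% binomial intervals ran from 31.1% to 55.7% in all. It held 25.1%, 26.0% and 20.9% at high glucose, with intervals from 18.4% to 28.8% in all, and these intervals cover counting error only. The shares were not corrected for exonic length, which is 13228 bases for Cacnb2 and 4010 for Cacnb3. Per kilobase, mean Cacnb2 and Cacnb3 levels were 0.860 and 4.11 CPM at low glucose and 0.913 and 9.55 CPM at high glucose. The difference in log2 ratio, high minus low, was -1.16, with means of -0.51 ± 0.33 and -1.67 ± 0.22 (SD, n = 3 each). An exact two-sided permutation test gave p = 0.1, the smallest that 3 against 3 libraries allow, and 0.15 adjusted over the 3 ratios computed. With same-numbered libraries as pairs, an exact test by sign flips gave p = 0.25, the smallest that 3 pairs allow.

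None of the 4 pore subunit genes passed the test in the fit without a replicate block. Cacna1d (chr14:30039939-30491455, minus strand) encodes Cav1.3 and Cacna1c (chr6:118587240-119196418, minus strand) encodes Cav1.2, the L-type channels of islet cells. Cacna1d was at 41.7, 36.1 and 34.4 CPM in replicates 1 to 3 at low glucose and at 30.5, 17.5 and 19.3 CPM in replicates 1 to 3 at high glucose. All high glucose libraries lay below all low glucose ones, with high glucose replicate 1 nearest to them. The log2 fold change was -0.74 ± 0.23, and it missed the threshold of 0.05 with an edgeR adjusted p of 0.0514. It passed with the replicate block (-0.77 ± 0.17, edgeR adjusted p = 0.0160), with DESeq2 (-0.74, adjusted p = 0.0281), with limma-voom (-0.78, adjusted p = 0.0498) and without high glucose replicate 1 (-1.02, edgeR adjusted p = 0.00264). Cacna1d shares 589 exonic bases, 4.67% of its exonic length, with Chdh on the opposite strand, and the strand setting of the counting is not given in the sources used here. Chdh, the choline dehydrogenase gene, had a log2 fold change of -0.84 ± 0.46 (edgeR adjusted p = 0.208), and its part in the Cacna1d counts was not tested.

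Cacna1c was at 21.8, 10.3 and 15.6 CPM in replicates 1 to 3 at low glucose and at 33.0, 21.0 and 17.8 CPM in replicates 1 to 3 at high glucose. The groups overlapped, and replicate 1 was the highest library of each. Its log2 fold change was 0.58 ± 0.33 (edgeR adjusted p = 0.225). Cacna1c is also expressed by smooth muscle and fibroblasts. The summed level of 11 muscle markers was 49.4 to 77.3 CPM at low glucose and 10.5 to 15.5 CPM at high glucose, and that of 7 fibroblast and stellate cell markers was 234 to 317 and 23.2 to 238 CPM. No marker on either list was at 0 in all libraries, but 7 of the 11 muscle markers were below the filter on low counts. The part of these markers' cells in the Cacna1c values was not tested.

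Inside each library, the balance of the L-type pore genes was taken as the ratio of their counts. Replicates 1 to 3 had 1.91, 3.50 and 2.21 Cacna1d counts for each Cacna1c count at low glucose. At high glucose they had 0.924, 0.834 and 1.08. The groups did not overlap: Cacna1d had more counts than Cacna1c in every low glucose library, and near equal counts at high glucose. Counts were not divided by exonic length, which is 12621 bases for Cacna1d and 21191 for Cacna1c. Per kilobase, mean Cacna1d and Cacna1c levels were 2.96 and 0.751 CPM at low glucose and 1.78 and 1.13 CPM at high glucose. Cacna1d made up 65.6%, 77.8% and 68.9% of the counts of both genes at low glucose and 48.0%, 45.5% and 52.0% at high glucose. The mean log2 ratio went from 1.29 ± 0.46 to -0.09 ± 0.19 (SD, n = 3 each), a difference of -1.38. The exact two-sided permutation test again gave the smallest possible p of 0.1, or 0.15 adjusted over the 3 ratios. The ratio was lower at high glucose in each same-numbered pair, by log2 differences of -1.05, -2.07 and -1.03. Sign flips of these pairs gave an exact p of 0.25, the smallest that 3 pairs allow.

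**Figure D2:**
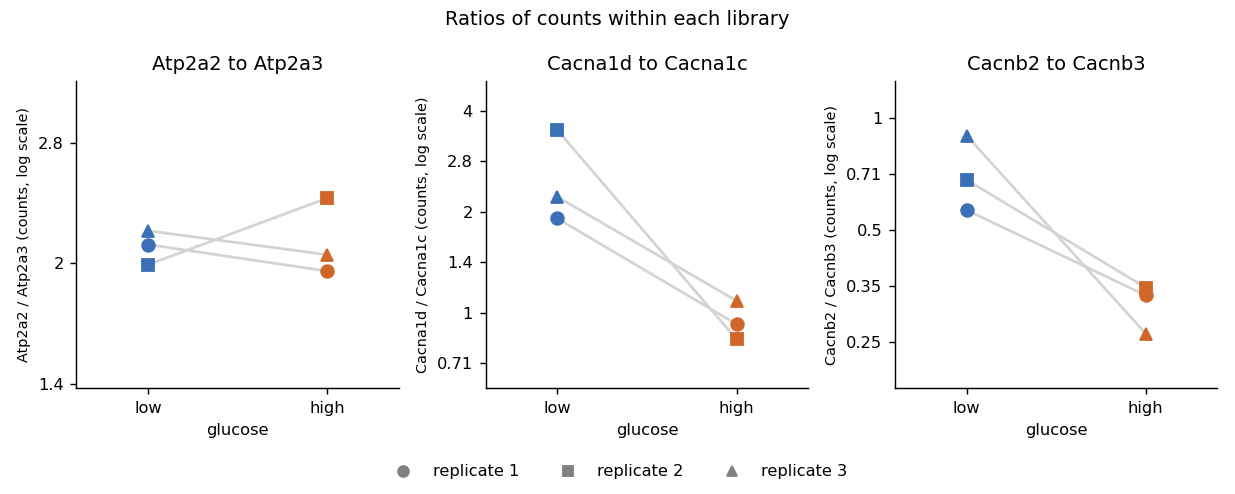
Ratio of the counts of 2 genes in each library (vertical axes, log scale) in the low (blue) and high glucose (orange) libraries, where grey lines join libraries with the same replicate number. The Cacna1d to Cacna1c ratio goes from between 1.91 and 3.50 to between 0.834 and 1.08, the Cacnb2 to Cacnb3 ratio from between 0.566 and 0.896 to between 0.264 and 0.351, and the groups overlap for Atp2a2 to Atp2a3.

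Promoter sequence is shown for Cacnb3, the gene that rose, and for the L-type pair, whose count ratios did not overlap between the groups. The windows are the parts outside annotated exons of the 250 bases before a RefSeq start site (GRCm38.p6), read 5′ to 3′ on the gene's strand. Capitals mark a GC box (GGGCGG on either strand), and neighbouring matches run together.
Cacnb3 upstream start, chr15:98632078-98632327, plus strand: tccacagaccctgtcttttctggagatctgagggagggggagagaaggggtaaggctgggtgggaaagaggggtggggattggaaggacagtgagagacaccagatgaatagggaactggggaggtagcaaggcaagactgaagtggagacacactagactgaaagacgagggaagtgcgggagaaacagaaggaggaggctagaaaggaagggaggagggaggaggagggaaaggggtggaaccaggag
Cacnb3 downstream start, chr15:98634568-98634766, plus strand: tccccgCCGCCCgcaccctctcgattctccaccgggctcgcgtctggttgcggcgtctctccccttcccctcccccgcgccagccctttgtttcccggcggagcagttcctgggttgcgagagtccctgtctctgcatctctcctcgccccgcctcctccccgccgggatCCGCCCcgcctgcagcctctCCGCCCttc
Cacna1d, chr14:30353487-30353736, minus strand: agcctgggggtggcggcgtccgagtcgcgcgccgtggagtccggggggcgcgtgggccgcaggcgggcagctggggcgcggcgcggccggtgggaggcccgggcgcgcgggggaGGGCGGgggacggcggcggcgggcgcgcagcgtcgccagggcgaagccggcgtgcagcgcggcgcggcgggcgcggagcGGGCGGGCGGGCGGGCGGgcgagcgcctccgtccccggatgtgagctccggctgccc
Cacna1c, chr6:119108574-119108745, minus strand: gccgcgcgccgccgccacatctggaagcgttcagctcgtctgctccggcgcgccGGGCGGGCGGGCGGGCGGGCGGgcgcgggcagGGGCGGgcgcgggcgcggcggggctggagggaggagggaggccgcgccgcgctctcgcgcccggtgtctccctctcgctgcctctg
The 2 Cacnb3 windows differed in composition, with 56.0% G and C and no GC box in the first and 71.9% and 3 matches in the second. The Cacna1d window had 86.4% G and C and 5 GC box matches, and the Cacna1c window 83.1% and 6. For Cacna1d and Cacna1c, the window with the most GC boxes among those listed was chosen after the matches were seen. The other Cacna1d window lay wholly in annotated exons and had 39.6% G and C over its 250 bases, with no GC box. The other Cacna1c windows had 51.6% and 50.4% over 250 bases, also with no GC box.

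RefSeq windows were found for 7 of the 10 members, 12 windows in all. On both strands, 7 motifs were searched in the full 250 bases: the E-box CACGTG, a strict form of the ChREBP-bound carbohydrate response element, the cyclic AMP response element TGACGTCA, the AP-1 site TGANTCA, the antioxidant response element TGACNNNGC, the GC box GGGCGG and the TATA box TATAAA. The strict form asked for a pair of perfect CACGTG copies 5 bases apart, so a match would also hold E-boxes. The natural element usually departs from these letters in its copies. GC boxes were in 6 of the 12 windows and in 32.7% of the 32851 windows of all genes. The antioxidant response element was in 1 window, of Cacna1c (10.2% of all windows), and the TATA box in 1, of Cacna1d (12.4%). The E-box (6.02% of all windows), the AP-1 site (6.75%) and the cyclic AMP response element (1.55%) were in 0 of the 12, and the strict carbohydrate response element was in 0 windows of any gene, so its absence from the members' windows tells nothing about them. A match is a description of letters and not a binding site.

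Cacna1a (chr8:84388440-84640246, plus strand) and Cacna1h (chr17:25374285-25433783, minus strand) encode the P/Q-type channel Cav2.1 and the T-type channel Cav3.2, which opens at more negative potentials. Cacna1a was at 34.5, 30.1 and 24.1 CPM in replicates 1 to 3 at low glucose and at 24.9, 18.4 and 19.95 CPM in replicates 1 to 3 at high glucose. High glucose replicate 1 lay just above low glucose replicate 3, and no other libraries overlapped. Its log2 fold change was -0.49 ± 0.20 (edgeR adjusted p = 0.101), and -0.63 without high glucose replicate 1, where it passed (edgeR adjusted p = 0.0310). Cacna1h was at 4.02, 3.49 and 3.77 CPM at low and 3.997, 2.40 and 2.37 CPM at high glucose in replicates 1 to 3. Its groups overlapped through high glucose replicate 1, and the log2 fold change was -0.36 ± 0.32 (edgeR adjusted p = 0.428).

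The SERCA pump genes had log2 fold changes of the same size, and neither passed. Atp2a2 (chr5:122453513-122502225, minus strand) encodes SERCA2, which most cell types carry, and Atp2a3 (chr11:72961169-72993044, plus strand) encodes SERCA3, known from blood, endothelial and secretory cells including beta cells. Atp2a2 was at 673, 480 and 562 CPM in replicates 1 to 3 at low glucose and at 506, 338 and 325 CPM in replicates 1 to 3 at high glucose. Atp2a3 was at 319, 241 and 256 CPM at low and 259, 140 and 159 CPM at high glucose. For both genes high glucose replicate 1 lay among the low glucose libraries, and the other high glucose libraries lay below all of them. Of 18 acinar markers 15 fell, where 14.2% of all tested genes did, and none was at 0. Their summed level was 468144 to 1029940 CPM at low and 65552 to 170695 CPM at high glucose. Acinar cells also carry SERCA2, and their part in these values was not tested. Within each group Atp2a2 and Atp2a3 were highest in the library with the smallest acinar share. That library also had the largest beta-cell share, so acinar and beta-cell content cannot be told apart here. The log2 fold change was -0.55 ± 0.26 for Atp2a2 (edgeR adjusted p = 0.151) and -0.55 ± 0.27 for Atp2a3 (edgeR adjusted p = 0.169).

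With the replicate block Atp2a3 passed (-0.59 ± 0.18, edgeR adjusted p = 0.0435). Without high glucose replicate 1 both pumps passed, with log2 fold changes of -0.79 for Atp2a2 (edgeR adjusted p = 0.0330) and -0.86 for Atp2a3 (edgeR adjusted p = 0.0146). The balance of the pumps was compared inside each library. There were 2.11, 1.99 and 2.20 Atp2a2 counts for each Atp2a3 count in replicates 1 to 3 at low glucose and 1.96, 2.41 and 2.05 at high glucose. The groups overlapped, with a log2 difference of 0.02 and an exact two-sided permutation p of 0.9.

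Replicate 1 was the highest library in both groups for 7 of the 9 tested members, the exceptions being Cacnb2 and Cacnb3, against 22.7% of all tested genes. The summed level of the 10 beta-cell markers was 33784 CPM in low glucose replicate 1 against 25911 and 30930 CPM in replicates 2 and 3. At high glucose it was 39704 CPM in replicate 1 against 17704 and 21198 CPM. No beta-cell marker was at 0 in all libraries. Without both libraries numbered 1, a setting added after the marker shares had been seen, Cacnb3 was higher and the same 5 genes were lower as without high glucose replicate 1 alone (20.4% and 20.7% of all genes higher and lower), with log2 fold changes from -0.94 (Cacna1d) to -0.50 (Cacna1a).

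**Figure D3:**
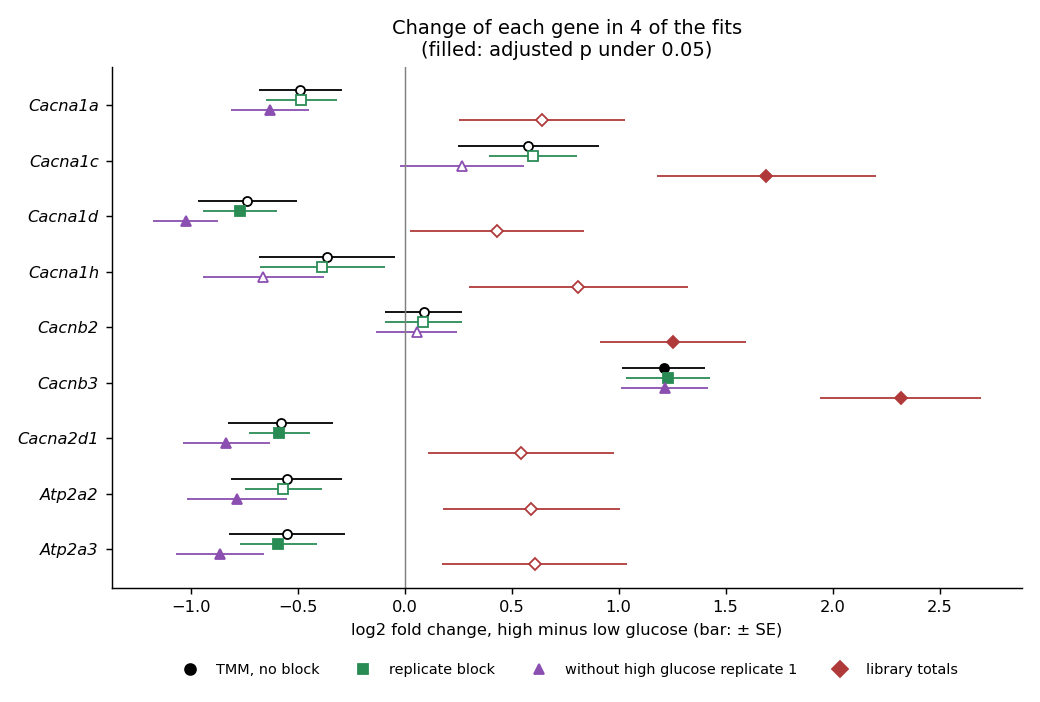
Log2 fold change, high minus low glucose, with its SE (horizontal axis) for the 9 tested genes in 4 fits, filled where the adjusted p is under 0.05. Cacnb3 is filled in each of the 4, and 6 genes that lie below 0 with TMM scaling lie above 0 with library totals, where the median of all genes is 1.16.

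Ryr2 (chr13:11553102-12106945, minus strand) encodes the ryanodine receptor best known from heart muscle, whose presence in beta cells has been debated. It was counted 3, 0 and 0 times in replicates 1 to 3 at low glucose and 7, 1 and 1 times at high glucose. These are 3 counts against 9 in all, and the ratio of scaled counts was 1.07 high over low, with an exact 95% interval from 0.267 to 6.15 for counting error only. No difference was detectable at this depth.

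Levels per kilobase of exonic length set the genes in order at low glucose. Exonic length joins the exons of all annotated transcripts of a gene, and which transcripts were expressed was not determined. The order rests on these lengths. The means were 94.0 ± 15.9 CPM per kb for Atp2a2, 51.5 ± 7.78 for Atp2a3, 4.11 ± 0.952 for Cacnb3 and 3.46 ± 0.807 for Cacna2d1 (SD, n = 3 each). Below them came Cacna1d with 2.96 ± 0.301, Cacna1a with 2.59 ± 0.458, Cacnb2 with 0.860 ± 0.0718, Cacna1c with 0.751 ± 0.273 and Cacna1h with 0.385 ± 0.0270 CPM per kb, and Ryr2 was last. The ranges of neighbours overlapped from Cacnb3 down to Cacna1a, and between Cacnb2 and Cacna1c. At high glucose Cacnb3, with 9.55 ± 0.313 CPM per kb, stood clear of Cacna2d1 with 2.32 ± 0.640. Neighbours overlapped there from Cacna2d1 through Cacna1a (1.85 ± 0.300), Cacna1d (1.78 ± 0.559) and Cacna1c (1.13 ± 0.379) to Cacnb2 (0.913 ± 0.106).

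Over the 6 libraries the genes with log2 CPM values most like those of Cacnb3 were Ikbkg, which encodes the NEMO subunit of the IkappaB kinase complex (Pearson r = 0.996), the matrix metalloproteinase gene Mmp24 (0.996) and Mdfi (0.994). With 6 libraries and 2 groups, 16 of the 13996 tested genes reached r of at least 0.99, and these values are a description only.

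Among 123 further calcium-handling genes on 8 lists, 93 were tested, 10 rose (13.3% of all tested genes) and 17 fell (14.2%), with a median log2 fold change of -0.28. With library totals 47 rose (59.6% of all genes) and 1 fell (4.49%). When hormone and granule genes set the library sizes, 7 rose (7.46%) and 4 fell (7.5%), with a median of -0.06. With 1 library left out, the count that fell ranged from 4 without low glucose replicate 2 (7.11%) to 25 without high glucose replicate 1 (20.5%). It was 9 without low glucose replicate 1 (11.1%), 11 without low glucose replicate 3 (10.9%), 8 without high glucose replicate 2 (10.2%) and 6 without high glucose replicate 3 (8.19%), and 22 with the replicate block (17.7%). The higher count was 6 without low glucose replicate 2 (4.86%) or high glucose replicate 3 (5.78%), and 11 with the replicate block (15.7%). Other channel subunits were mostly scarce, with 11 of 19 below the filter or without a count. Among the 8 tested, with a median log2 fold change of -0.91, Cacna2d4, an alpha-2-delta subunit gene, rose by 1.88 ± 0.55 and the gamma subunit gene Cacng4 fell by 1.52 ± 0.41 (edgeR adjusted p = 0.0404 and 0.0306). Each of them was lost without low glucose replicate 1 (2.09 and -1.21), low glucose replicate 2 (2.20 and -1.57) or high glucose replicate 3 (1.80 and -1.44), Cacna2d4 also without low glucose replicate 3 (1.52) or high glucose replicate 1 (1.68), and Cacng4 without high glucose replicate 2 (-1.33). Cacna2d4 did not pass in limma-voom either (1.91), nor Cacng4 when sizes came from library totals (-0.42) or from hormone and granule genes (-1.33). With the replicate block 3 of the 8 fell and 1 rose (17.7% and 15.7% of all genes). The R-type pore gene Cacna1e, a beta-cell channel, had means of 3.49 ± 1.45 CPM and 1.22 ± 0.952 CPM at low and high glucose (SD, n = 3 each) and did not pass, and it is named here after its values were seen.

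Genes of the RGK proteins, small GTPases that bind beta subunits and inhibit the channels, were higher in part. Of 6 tested channel regulators, with a median log2 fold change of 0.69, 2 rose and 0 fell, where 13.3% and 14.2% of all genes did, and 3 had an unadjusted p under 0.05 (41.5% of all genes). DESeq2 called 3 higher and 0 lower (15.6% and 16.8% of all genes), limma-voom 2 and 0 (10.7% and 14.0%) and the replicate block 3 and 0 (15.7% and 17.7%). Without high glucose replicate 1 the list's median was -0.08, with 2 higher (19.8% of all genes). The higher count was 1 without low glucose replicate 1 (7.71% of all genes) or 2 (4.86%) or high glucose replicate 3 (5.78%). Rrad was at 1.92, 1.16 and 0.786 CPM in replicates 1 to 3 at low glucose and at 4.99, 6.24 and 6.95 CPM in replicates 1 to 3 at high glucose. The groups did not overlap, and Rrad rose by 2.16 ± 0.37 (edgeR adjusted p = 0.00635). Rem2 rose by 1.51 ± 0.38 (edgeR adjusted p = 0.0239), a call lost without low glucose replicate 1 (1.73) or 2 (1.67) and without high glucose replicate 2 (1.55) or 3 (1.54).

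Of 14 tested genes of store release and store-operated entry, 3 fell and 2 rose, where 14.2% and 13.3% of all genes did, and the median was -0.27. Itpr1, an inositol trisphosphate receptor gene, was at 54.6, 47.5 and 41.4 CPM in replicates 1 to 3 at low glucose and at 19.9, 17.4 and 12.9 CPM in replicates 1 to 3 at high glucose. It fell by 1.51 ± 0.20 (edgeR adjusted p = 0.00257), and with library totals it did not pass (-0.38). Orai1, the pore of store-operated entry, rose by 1.00 ± 0.20 (edgeR adjusted p = 0.0105), a call lost with library sizes set by hormone and granule genes (1.33). With high glucose replicate 1 left out, 5 fell and 3 rose, where 20.5% and 19.8% of all genes did. Without low glucose replicate 2, 1 fell and 1 rose (7.11% and 4.86%), and with hormone and granule gene scaling 1 fell and 0 rose (7.5% and 7.46%). In addition, 2 fell and 1 rose when low glucose replicate 3 or high glucose replicate 2 or 3 was left out. In these fits 10.9%, 10.2% and 8.19% of all genes fell and 8.76%, 7.66% and 5.78% rose.

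Of 9 tested partners of SERCA pumps and ryanodine receptors, 3 fell and 1 rose, where 14.2% and 13.3% of all genes did, and the median was -0.82. The ryanodine receptor-binding immunophilin genes differed in direction. Fkbp1a rose by 0.81 ± 0.15 (edgeR adjusted p = 0.00781), from 86.1 ± 4.27 to 151 ± 10.7 CPM (SD, n = 3 each), and missed the threshold with hormone and granule gene sizes (1.13). Fkbp1b fell by 1.32 ± 0.27 (edgeR adjusted p = 0.0124), from 20.2 ± 4.95 to 8.12 ± 2.24 CPM, and did not pass with library totals (-0.21) or with hormone and granule gene sizes (-1.09). Mrln, which encodes the SERCA inhibitor myoregulin, fell by 2.15 ± 0.40 (edgeR adjusted p = 0.00866) at levels of 2.29 ± 0.761 and 0.513 ± 0.107 CPM, and did not pass with library totals (-1.05). The lower count was 4 with the replicate block (17.7% of all genes) and without high glucose replicate 1 (20.5%). It was 2 without low glucose replicate 1 (11.1%) or 2 (7.11%) or high glucose replicate 2 (10.2%) or 3 (8.19%). It was 1 with hormone and granule gene scaling (7.5%).

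Of 9 tested genes of calcium extrusion to the outside or into the Golgi, 4 fell and 0 rose, where 14.2% and 13.3% of all genes did, and the median was -0.85. DESeq2 and limma-voom also gave 4 lower (16.8% and 14.0% of all genes) and 0 higher (15.6% and 10.7%), and 5 had an unadjusted p under 0.05 (41.5%). The Golgi pump gene Atp2c2 fell by 2.43 ± 0.48 (edgeR adjusted p = 0.0103). It was at 8.70, 19.9 and 19.7 CPM in replicates 1 to 3 at low glucose and at 1.45, 4.29 and 3.17 CPM in replicates 1 to 3 at high glucose. Within each group the library numbered 1, with the smallest acinar and the largest beta-cell share, had the lowest Atp2c2 level. The part of acinar or beta-cell RNA in it was not tested. The plasma membrane pump gene Atp2b1 fell by 1.199 ± 0.28 (edgeR adjusted p = 0.0179). It no longer passed without low glucose replicate 1 (-1.03) or 2 (-1.14), high glucose replicate 2 (-1.15) or 3 (-1.02), nor with sizes set by library totals (-0.07) or by hormone and granule genes (-0.98). The count of 4 lower genes became 1 when any of those 4 libraries was left out (7.11% to 11.1% of all genes), 2 without low glucose replicate 3 (10.9%) and 1 with hormone and granule gene scaling (7.5%). It was 5 with the replicate block (17.7%) and 6 without high glucose replicate 1 (20.5%). Slc24a2, also on this list, fell by 1.13 ± 0.30 (edgeR adjusted p = 0.0301). Among fits with a single library left out, it passed only without high glucose replicate 1 (-1.51). It did not pass with library totals or with hormone and granule gene sizes (-0.95).

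Mitochondrial calcium transport had 2 higher and 1 lower of 11 tested genes (13.3% and 14.2% of all genes), and a median of -0.24. Mcub, which encodes an inhibitory paralogue of the uniporter pore, rose by 1.57 ± 0.25 (edgeR adjusted p = 0.00489), from 2.45 ± 0.194 to 7.34 ± 1.17 CPM (SD, n = 3 each), while the pore gene Mcu (-0.69 ± 0.27) did not pass and is named here after its values were seen. The other calls did not hold with single libraries left out. Vdac3, an outer membrane channel gene (0.81), no longer passed without low glucose replicate 1 or 2 or high glucose replicate 2 or 3 (0.73 to 0.81) or with hormone and granule gene sizes (1.15), and Smdt1, a uniporter subunit gene (-0.49), passed only without high glucose replicate 1 among the single libraries (-0.54 to -0.37 in the others). With the replicate block Smdt1 did not pass (-0.48, edgeR adjusted p = 0.0515), which left 0 lower genes on the list, with 17.7% of all genes lower. A list of 14 calcium-binding proteins of the secretory pathway held chaperones of the endoplasmic reticulum and other proteins. Of these genes, 0 rose and 1 fell by edgeR (13.3% and 14.2% of all genes) with a median of -0.05, and 4 had an unadjusted p under 0.05 (41.5%). DESeq2 gave 0 and 2 (15.6% and 16.8% of all genes), and limma-voom 0 and 1 (10.7% and 14.0%). The gene that fell was Nucb2 (-1.12 ± 0.32, edgeR adjusted p = 0.0387), which encodes a calcium-binding protein and not one of the chaperones. Its call was lost when any library but low glucose replicate 1 was left out (-1.22 to -0.84) and with library totals (0.12) or hormone and granule gene sizes (-0.81).

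Of 22 tested cytosolic sensors and effectors, 2 rose and 4 fell, where 13.3% and 14.2% of all genes did, and the median was -0.07. Rcan1, which encodes a regulator of the phosphatase calcineurin, was at 13.6, 20.6 and 15.1 CPM in replicates 1 to 3 at low glucose and at 67.3, 226 and 84.2 CPM in replicates 1 to 3 at high glucose. High glucose replicate 2 stood far above the others, and Rcan1 rose by 2.94 ± 0.49 (edgeR adjusted p = 0.00541). Ncs1, the neuronal calcium sensor gene, rose by 1.94 ± 0.38 (edgeR adjusted p = 0.0103). The calcineurin-dependent transcription factor gene Nfatc2 fell by 1.08 ± 0.23 (edgeR adjusted p = 0.0134). Leaving out low glucose replicate 2 or high glucose replicate 3 took it above the threshold (edgeR adjusted p = 0.0660 and 0.0605). Nfatc2 also did not pass with sizes from library totals (0.13) or from hormone and granule genes (-0.90). It still passed with DESeq2 size factors (-1.085), and with the 20 most abundant genes (-1.08) or the acinar markers (-1.08) left out of TMM. The lower count was 6 with the replicate block (17.7% of all genes) and with DESeq2 (16.8%), and 5 without high glucose replicate 1 (20.5%). It was 2 without low glucose replicate 1 (11.1%) or 3 (10.9%), 0 without low glucose replicate 2 (7.11%), 3 without high glucose replicate 2 (10.2%), 1 without high glucose replicate 3 (8.19%) and 1 with hormone and granule gene scaling (7.5%).

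**Figure D4:**
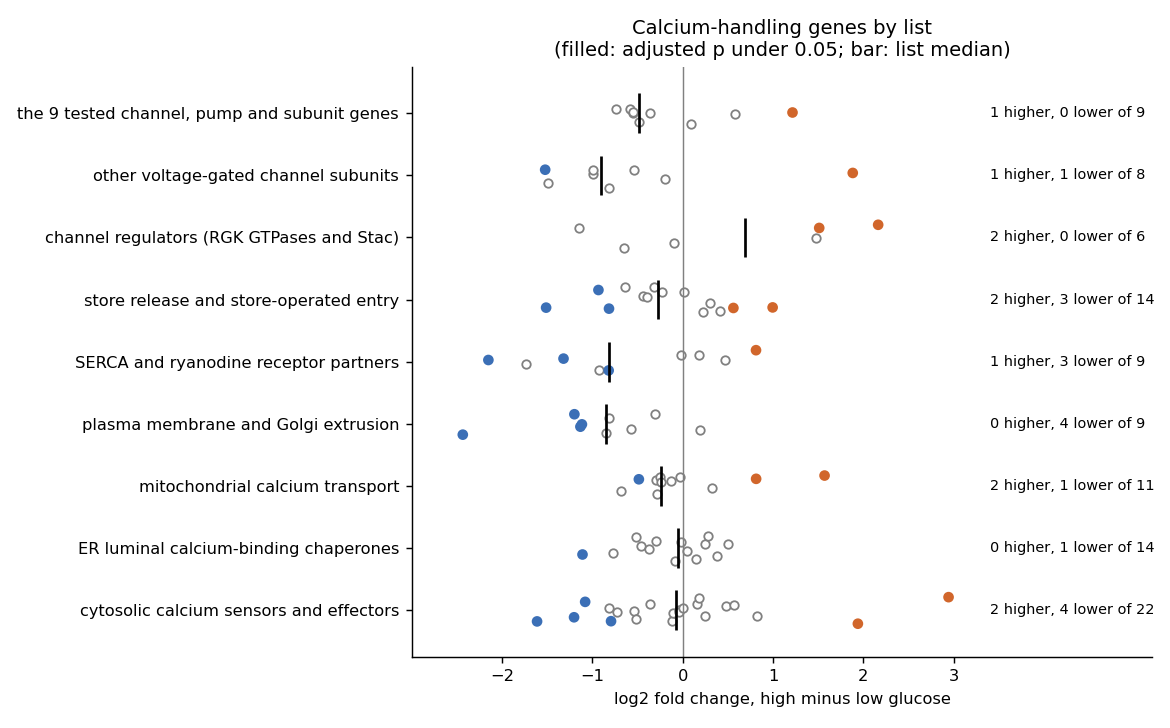
Log2 fold change, high minus low glucose (horizontal axis), of the 9 tested channel, pump and subunit genes and of 93 other tested calcium-handling genes on 8 lists, where points are genes, filled points have an adjusted p under 0.05, black bars are list medians and vertical scatter has no meaning. Counts of higher and lower genes stand at the right, and the extrusion list has 4 lower and 0 higher of 9.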

How the data were processed

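Polyadenylated RNA was measured in 3 low and 3 high glucose libraries. The authors deposited counts of reads per Ensembl gene, not normalized, and per the submitters' processing notes used STAR 2.7.3a and HTSeq 0.6.1p1 on GRCm38. The annotation, strand setting and handling of molecular barcodes are not given in the sources used here. Names, coordinates and exonic lengths came from GENCODE M21, which named all but 495 rows (0.0141% of counts).

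High and low glucose were compared over 13996 genes by edgeR 4.0.16 (quasi-likelihood F-test; R 4.3.3) with TMM scaling and filterByExpr (minimum count 10, minimum total 15). An adjusted p under 0.05 (Benjamini-Hochberg) was the threshold, and SEs were derived from the F statistic. In simulated counts (13996 genes, 3 against 3), 100 genes were changed 2-fold and 100 were changed 4-fold. Of these, 12 and 71 were recovered, and 10 of the 93 genes called were unchanged ones. In the data, 13.3% and 14.2% of genes were called higher and lower. With far fewer changed genes the adjusted threshold was stricter in the simulation, so its recovery does not measure the power of the real test. Count ratios within a library were compared by exact permutation.

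Deviations from the group means correlated by 0.40, 0.26 and 0.25 between same-numbered libraries and by -0.31 to 0.07 between others. On the data alone, the numbers were therefore treated as pairs in an alternative fit with a replicate block. No label states a pairing, so the main fit has no block. Blocked values are given where they change a call or a count. No 2 libraries of a group agreed within sampling noise (chi-square at least 16.2 times its degrees of freedom).

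The members, the pathway and marker lists and the alternatives were chosen with earlier results of these data known. All members are named, and up to 3 passing genes of each list with the smallest p, or its most counted gene where none passed. The alternatives were other scalings, filters and tools (DESeq2 1.42.0, limma 3.58.1), the replicate block and leaving out libraries. Promoter sequences came from RefSeq (GRCm38.p6). Figures were drawn with matplotlib 3.10.9.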

Additional observations from a re-analysis of the deposited data

How the results depend on the processing

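The count of 1 higher member held in each alternative except library totals, where 3 rose (Cacnb3, Cacna1c and Cacnb2) and 59.6% of all genes did. The count of 0 lower members became 1, Cacna1d each time, in some alternatives. These were a filter of 50 counts in 3 libraries (14.7% of all genes lower), DESeq2 (16.8%) and limma-voom (14.0%). It became 3 with the replicate block (17.7%), and 0 to 5 with 1 library left out, with 5 without high glucose replicate 1 (20.5%). The block changed no other member's call.

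With library totals the values turned positive for Cacna1a (0.64), Cacna1d (0.43), Cacna1h (0.81), Cacna2d1 (0.54), Atp2a2 (0.59) and Atp2a3 (0.61), none of which passed, and all lay below the median of all genes there (1.16). The values turned positive as well for Tpcn1 (0.36), Nfatc2 (0.13), Smdt1 (0.69) and Nucb2 (0.12). With hormone and granule gene scaling, Cacnb3 was at 1.51.

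The Atp2a2 to Atp2a3 log2 ratio difference (0.02, and 0.02 with the replicate block by sign flips of pairs) changed sign with medians (-0.0423) and lay between -0.0674 and 0.0882 with libraries left out, below 0 without low or high glucose replicate 2. The ratio of Cacna1d to Cacna1c stayed between -1.56 and -1.13, and that of Cacnb2 to Cacnb3 between -1.36 and -0.98. Depth limits Ryr2 most. With 3 libraries in each group, a member that did not pass may still differ. The simulated recovery does not measure how likely that is, since far fewer genes were changed there than were called in the data.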
